A study of Mus musculus with 6 samples.

Results

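The 10 genes described here form a list of scavenger receptors for modified lipoproteins and related proteins. They were taken by symbol from the deposited count table, where each of the 10 matched 1 row of 42256 genes. They comprise the class A receptors Msr1, Marco and Colec12, the class B receptors Scarb1 and Scarb2, Cd68 of class D, Olr1 of class E, the membrane chemokine Cxcl16, the large endocytic receptor Lrp1, and Cd5l, a secreted protein with scavenger receptor cysteine-rich (SRCR) domains. They were measured by RNA sequencing in macrophages grown from the marrow of adult males for 7 days, with 20% L929-conditioned medium (a source of the macrophage growth factor CSF1) and 10% FBS. The knockout (KO) libraries carried the genotype CDH11-/- and the wild-type (WT) libraries CDH11+/+, 3 of each, on a mixed 129S1/Sv and C57BL/6 background that both genotypes share. No treatment was given. The knockout is present in the whole animal, and no label says which animal a library came from, so each p-value reflects only how much these libraries vary, which may be technical.

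Scavenger receptors take up lipoproteins whose protein or lipid has been oxidised or acetylated, and this uptake is not shut down when the cell fills with cholesterol. Macrophages in the artery wall that take up lipoprotein this way become foam cells, the hallmark of atherosclerotic lesions. The same receptors bind bacteria, apoptotic cells and other polyanionic particles, and some members of the group do other work, such as cholesterol exchange with HDL, transport of an enzyme to the lysosome or attraction of lymphocytes.

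The promoter windows of the member with the largest rise among the called genes (Cd5l), of an abundant member that rose (Cd68) and of a member that fell (Scarb2) are shown because these members differ in the direction of their change. The windows run from 250 bases before to 50 bases after the RefSeq start of transcription (GRCm38.p6), and RefSeq windows were matched for 6 of the 10 members. They lie at chr3:87357631-87357930 on the plus strand for Cd5l, at chr11:69666121-69666420 on the minus strand for Cd68 and at chr5:92505608-92505907 on the minus strand for Scarb2. In the annotation used for gene coordinates (GENCODE M21) Scarb2 begins at 92506833 on the minus strand, so its window lies inside that gene. Capitals mark matches, on either strand, to the PU.1 core GAGGAA, the AP-1 site TGANTCA, the E-box CACGTG of the lysosomal CLEAR element, the Sp1 box GGGCGG, the MAF half-site TGCTGA and, in the Cd5l window, the paired half-sites TGCTGANNTCAGCA, spacer bases included.
Cd5l: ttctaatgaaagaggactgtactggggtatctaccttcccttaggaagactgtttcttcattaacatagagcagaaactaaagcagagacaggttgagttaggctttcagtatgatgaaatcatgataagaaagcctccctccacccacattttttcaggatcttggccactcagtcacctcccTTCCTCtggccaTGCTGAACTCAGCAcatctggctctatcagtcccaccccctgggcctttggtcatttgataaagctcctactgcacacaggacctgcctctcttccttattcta
Cd68: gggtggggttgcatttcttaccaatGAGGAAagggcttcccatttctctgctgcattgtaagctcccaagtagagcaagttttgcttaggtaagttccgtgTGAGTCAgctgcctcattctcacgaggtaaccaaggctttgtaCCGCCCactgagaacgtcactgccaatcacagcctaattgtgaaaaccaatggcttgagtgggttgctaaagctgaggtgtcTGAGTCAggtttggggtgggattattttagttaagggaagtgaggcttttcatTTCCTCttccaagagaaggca
Scarb2: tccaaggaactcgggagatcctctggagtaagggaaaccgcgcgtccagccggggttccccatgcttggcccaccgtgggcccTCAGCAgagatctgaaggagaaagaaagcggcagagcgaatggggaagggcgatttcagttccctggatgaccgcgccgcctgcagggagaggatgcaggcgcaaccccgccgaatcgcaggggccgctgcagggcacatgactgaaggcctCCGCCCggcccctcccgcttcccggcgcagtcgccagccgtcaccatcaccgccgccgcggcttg
The Cd5l window held 0 CpG dinucleotides and the Cd68 window 4, against 28 in the Scarb2 window, where the median of all 32851 windows was 7. The other member windows used, not shown, held 16 (Lrp1), 7 (Olr1) and 0 (Marco). A relation between CpG number and direction of change was not tested. The PU.1 core, found in 28.3% of all windows, occurred once in the Cd5l window and 2 times in the Cd68 window. The AP-1 site, found in 7.81% of all windows, occurred 2 times in the Cd68 window. The Cd5l window held 2 MAF half-sites (in 19.5% of all windows) facing each other, beginning 54 and 46 bases before the start. The paired form TGCTGANNTCAGCA, which contains both half-sites and was searched after that pair was seen, occurred in 2 of the 32851 windows. In the Scarb2 window the marked letters are 1 MAF half-site and 1 Sp1 box, and 35.7% of all windows hold the Sp1 box. The E-box, in 7.15% of all windows, is in none of the 3 windows shown. These are matches of letters and show no binding.

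The libraries held 28193880 to 30122204 counts in KO and 27170943 to 37113689 in WT. Values below are CPM, counts relative to library totals scaled by TMM. Rises and falls in KO are named at an adjusted p under 0.05 (edgeR, quasi-likelihood, Benjamini-Hochberg) over the 12862 genes that passed a filter on low counts. Cdh11 itself was near the limit of detection, with 4 to 6 counts in KO and 6 to 11 in WT (two-sided exact permutation p = 0.5, the smallest possible with 3 against 3 libraries being 0.1), so it does not check the genotype labels. On the first principal component KO 1 lay nearest to WT, at -7.11 against -28.36 and -18.39 for KO 2 and KO 3 and 12.21 to 22.86 for WT. All 12 macrophage markers were well measured. Their summed level was 23394 to 30033 CPM in KO and 35500 to 39598 CPM in WT, most of it Lyz2, which fell to 15906 ± 2602 CPM in KO against 23625 ± 1033 CPM in WT (SD, n = 3 each; edgeR adjusted p = 0.0158, a call lost without WT 1, without WT 2 and without KO 2 and WT 2 together). Of the 12 markers 1 (Cd68) rose and 2 fell, where 35.2% of all tested genes were called. The other that fell was Csf1r, the receptor for CSF1, at 2286 ± 371 CPM in KO and 3721 ± 315 CPM in WT. Its call (edgeR adjusted p = 0.00894) was kept in all 15 alternatives. In bulk RNA fewer cells of a type and less RNA per cell cannot be told apart. Marker lists of other cells summed to 230.1 to 277 CPM in KO and 216 to 298 CPM in WT for monocytes, 40.8 to 117 CPM in KO and 34.3 to 88.0 CPM in WT for neutrophils, 53.2 to 69.5 CPM in KO and 45.2 to 58.4 CPM in WT for endothelium, 173 to 277 CPM in KO and 167 to 242 CPM in WT for erythroid cells and megakaryocytes (mainly Pf4) and at most 6.56 CPM in any library for dendritic cells, fibroblasts, B, T and mast cells. The fibroblast markers Dcn and Lum and the endothelial marker Emcn were at 0 counts in all 6 libraries. Only the mast cell and basophil list had a summed level in KO (1.05 to 3.84 CPM) above that in WT (0.241 to 0.402 CPM) without overlap, and its part in the results was not tested.

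Cd5l, Msr1 and Cd68 rose in KO and Scarb1 and Scarb2 fell. Lrp1, Marco, Cxcl16 and Colec12 did not pass the test, and Olr1 was too low to be tested with the rest. Of the 9 members that passed the filter 3 rose and 2 fell, where 35.2% of all tested genes were called (18.5% higher and 16.8% lower in KO), and the same 5 members had CPM that did not overlap between the genotypes, as did 53.4% of all tested genes (27.0% higher and 26.4% lower in KO). With only 9 members tested, the count of 5 is not read as a result about the group as a whole. With upper quartile scaling the 2375 rises and 2157 falls among all genes became 2933 and 1621. The changes of the 5 called members ran from 1.25-fold to 1.79-fold, and the median absolute log2 fold change of all called genes was 0.45.

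**Figure D1:**
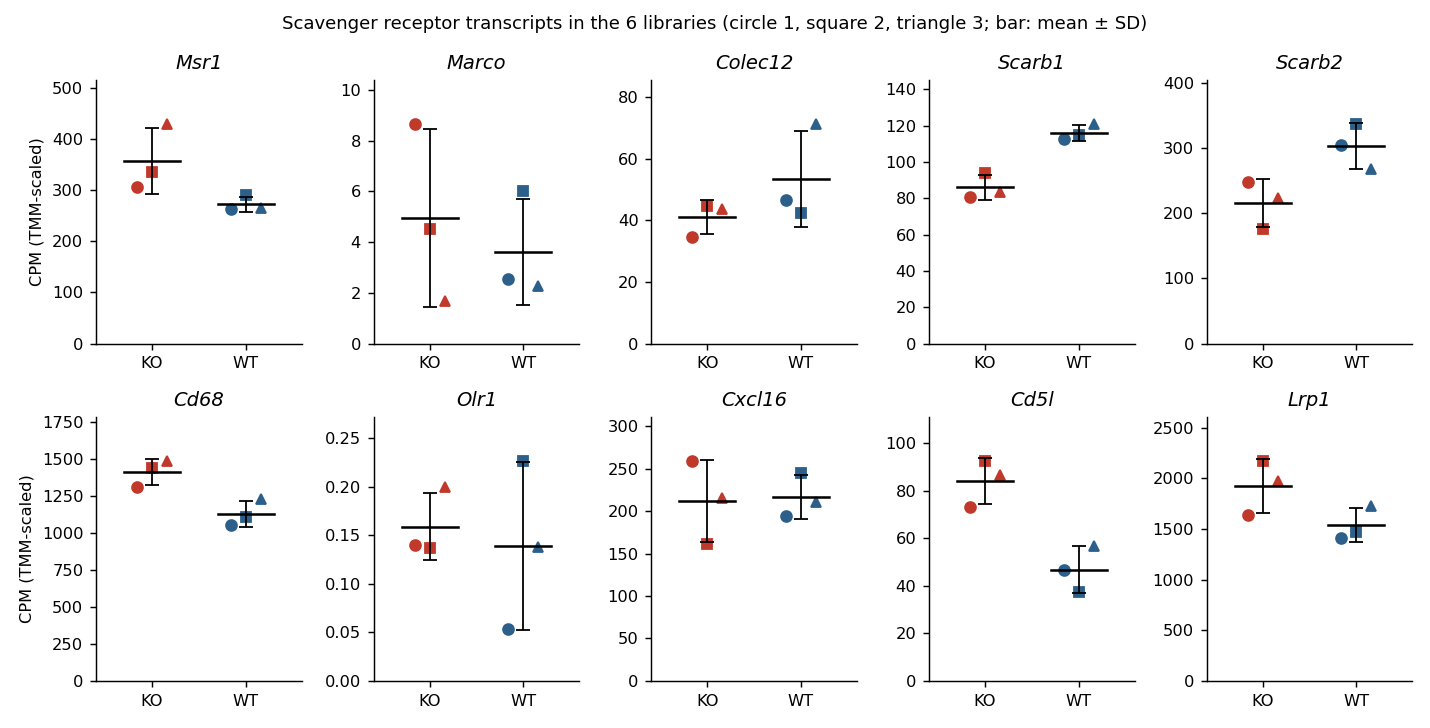
CPM of each of the 10 members in every library, with KO in red on the left and WT in blue on the right of each panel; symbols mark the library number and bars the mean ± SD (n = 3 each). KO and WT do not overlap for Msr1, Scarb1, Scarb2, Cd68 and Cd5l, and overlap for the other members.

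Per kilobase of exon, which allows levels of different genes to be compared, Cd68 was the most abundant member, at 1123 ± 71.4 CPM per kb in KO and 898 ± 71.0 CPM per kb in WT (SD, n = 3 each). It made up 77.4% of the summed level of the 10 members in KO and 75.3% in WT. Lrp1 came next, at 109 ± 15.2 in KO and 86.8 ± 9.57 CPM per kb in WT, and its range did not overlap that of Cxcl16, the next in order, in KO but did in WT. Cxcl16, Msr1, Scarb2 and Cd5l lay between 23.0 and 71.7 CPM per kb in both genotypes. Among these, Cxcl16 and Msr1 overlapped in KO, as did Cd5l and Scarb2, while in WT Scarb2 and Msr1 overlapped. Scarb2 was the fourth most abundant member in WT and the sixth in KO, and Msr1 and Cd5l stood above it in KO. Scarb1 (10.1 ± 0.819 in KO and 13.6 ± 0.528 CPM per kb in WT) and Colec12 (4.70 ± 0.641 and 6.13 ± 1.797 CPM per kb) followed, and Marco (2.58 ± 1.82 and 1.87 ± 1.08 CPM per kb) and Olr1 (0.0445 ± 0.00978 and 0.0390 ± 0.0242 CPM per kb) were lowest. This order depends on the length used. With the longest transcript in place of all exons, Scarb2 was the fifth in both genotypes, Msr1 stood ahead of Cxcl16 and Scarb2 ahead of Cd5l in KO, and Msr1 stood ahead of Scarb2 and Scarb1 ahead of Cd5l in WT.

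**Figure D2:**
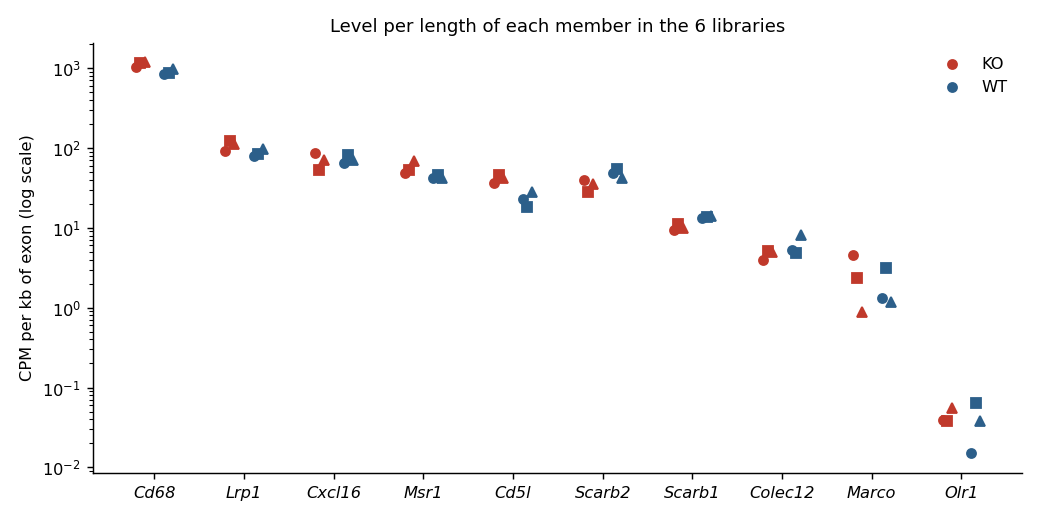
Level of each member in CPM per kb of exon on a log axis, KO in red left of WT in blue, 1 point for each library, with genes in the order of their KO mean. Cd68 stands above the rest in both genotypes, and Olr1 lies below 0.1 CPM per kb in every library.

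Among the class A receptors, Msr1 rose while Marco and Colec12 did not pass the test. Msr1 encodes scavenger receptor A, a trimeric receptor with a collagen-like stalk that takes up acetylated and oxidised LDL (ENSMUSG00000025044, GRCm38 chromosome 8, 39581685 to 39642673, minus strand). It was at 307, 335 and 430.3 CPM in KO 1 to KO 3, against 263, 289.9 and 266 CPM in WT 1 to WT 3. Every KO library was above every WT library, with the closest pair, KO 1 and WT 2, only a little apart and KO 3 well above the others. The mean was 358 ± 64.7 CPM in KO and 273 ± 14.9 CPM in WT (SD, n = 3 each), a log2 fold change of 0.39 (SE 0.13; edgeR adjusted p = 0.0483). This call was at the edge of the threshold. The adjusted p was above it with RLE scaling (0.0512), limma-voom (0.0511), the deposited signal (0.0583) and without KO 2 (0.0821), KO 3 (0.0890), WT 1 (0.144), WT 2 (0.0879), WT 3 (0.115) or KO 2 and WT 2 together (0.121), within a range of 0.0132 to 0.144 over all 15 alternatives. Without KO 3 the log2 fold change was 0.23. Msr1 lies on the same chromosome as Cdh11, 63.0 Mb away.

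Marco, a class A receptor best known for binding bacteria and inhaled particles (ENSMUSG00000026390, chromosome 1, 120474538 to 120505024, minus strand), was expressed at a low level that varied more between libraries than between genotypes. It had 8.67, 4.53 and 1.69 CPM in KO 1 to KO 3, against 2.54, 6.00 and 2.27 CPM in WT 1 to WT 3. The lowest of all values was in KO 3 and the highest in KO 1, 5.12-fold apart. The log2 fold change was 0.47 with a 95% interval of -1.07 to 2.01 (adjusted p = 0.591), so neither a fall nor a rise of 2-fold is outside the interval. Its sign turned without KO 1, to -0.20, and without WT 2 it was 1.03.

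Colec12, a collectin-like class A receptor known mainly from endothelium (ENSMUSG00000036103, chromosome 18, 9707595 to 9882644, plus strand), was at 34.6, 44.7 and 43.8 CPM in KO 1 to KO 3, against 46.6, 42.5 and 71.4 CPM in WT 1 to WT 3. The genotypes overlapped, and WT 3 stood above the other 5 libraries. The log2 fold change of -0.38 (95% interval -0.90 to 0.14; adjusted p = 0.206) became -0.12 without WT 3. Of the 9 endothelial markers, Emcn had 0 counts and Tek and Lyve1 at most 3 in any library, while 6 were measured. The most abundant was Vwf, at 41.3 ± 11.6 CPM in KO and 29.5 ± 9.97 CPM in WT (SD, n = 3 each). Egfl7 fell to 1.41 ± 0.485 CPM in KO against 3.17 ± 0.613 CPM in WT (edgeR adjusted p = 0.0200), a call lost without KO 3, WT 1 or WT 2 and without KO 2 and WT 2 together. Their part in the values of Colec12 was not tested.

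Both class B members among the 10 genes fell in KO. Scarb1 encodes SR-B1, the HDL receptor that moves cholesteryl esters between lipoprotein and cell and also binds oxidised LDL (ENSMUSG00000037936, chromosome 5, 125277087 to 125341094, minus strand). It was at 80.7, 93.9 and 83.4 CPM in KO 1 to KO 3, against 112, 115 and 121 CPM in WT 1 to WT 3. The genotypes were well separated, with little spread inside either. The mean was 86.0 ± 6.96 CPM in KO and 116 ± 4.49 CPM in WT (SD, n = 3 each), a log2 fold change of -0.43 (SE 0.07; edgeR adjusted p = 0.00708). The call held in each of 15 alternatives, with an adjusted p of at most 0.0358.

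Scarb2 encodes LIMP-2, a protein of the lysosomal membrane that takes part in delivering enzyme to the lysosome and is related to CD36 in sequence (ENSMUSG00000029426, chromosome 5, 92441314 to 92506833, minus strand). It was at 247, 176 and 224 CPM in KO 1 to KO 3, against 305, 337 and 267 CPM in WT 1 to WT 3. All KO libraries were below all WT libraries, KO 2 being the lowest and KO 1 and WT 3 the closest pair. The mean was 216 ± 36.4 CPM in KO and 303 ± 35.1 CPM in WT (SD, n = 3 each), a log2 fold change of -0.49 (SE 0.14; edgeR adjusted p = 0.0350). Over all alternatives its adjusted p ran from 0.00326 to 0.112. The call held in the 8 alternatives that kept all libraries and was lost without KO 2 (log2 fold change -0.36, adjusted p = 0.0561), KO 3 (-0.52, 0.0862), WT 1 (-0.49, 0.0975) or WT 2 (-0.41, 0.104). Without KO 2 and WT 2 together the log2 fold change was -0.28 and the call was also lost. Scarb1 and Scarb2 lie on the same chromosome, 32.8 Mb apart.

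**Figure D3:**
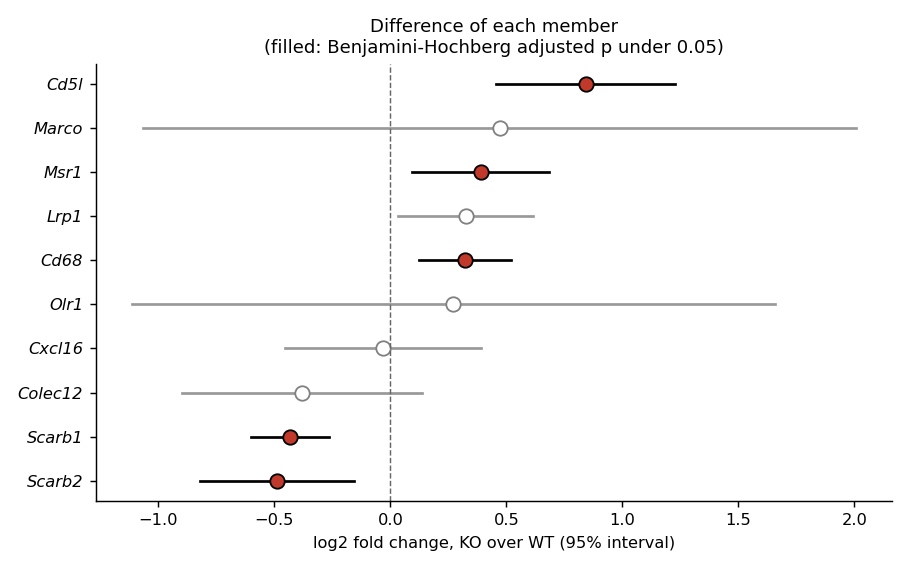
log2 fold change of each member, KO over WT, with its unadjusted 95% interval from edgeR; filled points have an adjusted p under 0.05. Cd5l has the largest called difference (0.84), Scarb1 and Scarb2 lie below 0, and the intervals of Marco and Olr1 span from below -1 to above 1.

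Cd68, the macrosialin of class D and a common macrophage marker, is a heavily glycosylated protein of late endosomes and lysosomes related to the LAMP proteins, and it binds oxidised LDL (ENSMUSG00000018774, chromosome 11, 69664213 to 69666153, minus strand). It rose, at 1311, 1438 and 1485 CPM in KO 1 to KO 3, against 1054, 1104 and 1227 CPM in WT 1 to WT 3. Each KO library was above each WT library, KO 1 being the lowest in KO and WT 3 the highest in WT. The mean was 1411 ± 89.8 CPM in KO and 1128 ± 89.2 CPM in WT (SD, n = 3 each), a log2 fold change of 0.32 (SE 0.08; edgeR adjusted p = 0.0244). The log2 fold change stayed between 0.27 and 0.39 over all 15 alternatives, with an adjusted p of 0.00310 to 0.136. The call was lost without KO 2 (adjusted p = 0.0624), KO 3 (0.0880), WT 1 (0.0948), WT 2 (0.0803) or KO 2 and WT 2 together (0.136). Cd68 rose while the summed level of the 12 macrophage markers, of which it is 1, was lower in every KO library than in any WT library.

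Olr1, the class E receptor LOX-1, is a lectin-like receptor for oxidised LDL best known from endothelium (ENSMUSG00000030162, chromosome 6, 129485244 to 129507165, minus strand). It had 4, 4 and 6 counts in KO 1 to KO 3, against 2, 6 and 4 counts in WT 1 to WT 3, close to the 3 counts taken as the floor of each library. No difference was detectable at this depth (two-sided exact permutation p = 0.9), and the 95% interval of the log2 fold change, with Olr1 added to the genes tested, was -1.11 to 1.66.

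Cxcl16 encodes a chemokine on a membrane stalk that binds oxidised LDL at the cell surface and, once shed, attracts lymphocytes that carry its receptor CXCR6 (ENSMUSG00000018920, chromosome 11, 70453983 to 70459984, minus strand). It was at 259, 162 and 215 CPM in KO 1 to KO 3, against 194, 245 and 211 CPM in WT 1 to WT 3. KO 1 and KO 2 held the highest and the lowest value of the 6 libraries, and the WT libraries lay between them. The log2 fold change was -0.03 (95% interval -0.45 to 0.39; adjusted p = 0.905), and its sign turned with upper quartile scaling (0.03), without KO 2 (0.13) and without WT 2 (0.06). Cxcl16 shares 552 exonic bases with Zmynd15 on the opposite strand, and the strand setting of the counting is not given in the sources used here. Zmynd15 was much lower, at 9.71 to 16.8 CPM in KO and 9.30 to 13.2 CPM in WT. Cd68 lies 0.788 Mb from Cxcl16 on the same chromosome.

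Cd5l showed the largest called change of the group. It encodes a secreted protein, also called AIM, that supports the survival of lipid-loaded macrophages in mice and is a known target of the sterol-activated receptor LXR alpha in mouse macrophages (ENSMUSG00000015854, chromosome 3, 87357881 to 87371073, plus strand). It was at 73.3, 92.5 and 86.6 CPM in KO 1 to KO 3, against 46.7, 37.2 and 56.8 CPM in WT 1 to WT 3. The lowest KO library was clearly above the highest WT library. The mean was 84.2 ± 9.85 CPM in KO and 46.9 ± 9.78 CPM in WT (SD, n = 3 each), a 1.79-fold rise (log2 fold change 0.84, SE 0.16; edgeR adjusted p = 0.0114). The call held in each of 15 alternatives, with log2 fold changes of 0.63 to 1.00 and an adjusted p of at most 0.0476. Nr1h3, which encodes LXR alpha, rose to 45.8 ± 1.55 CPM in KO against 20.2 ± 1.77 CPM in WT (adjusted p = 0.00398). Maf, a MAF family transcription factor, fell to 629 ± 144 CPM in KO against 1158 ± 86.8 CPM in WT (adjusted p = 0.00924, a call lost without KO 2 and WT 2 together). Any link between these and Cd5l was not tested.

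Lrp1, an endocytic lipoprotein receptor for apolipoprotein E-rich remnants, proteinase complexes and apoptotic cells (ENSMUSG00000040249, chromosome 10, 127538161 to 127621148, minus strand), was at 1637, 2169.97 and 1969 CPM in KO 1 to KO 3, against 1408, 1474 and 1729 CPM in WT 1 to WT 3. KO 1 lay below WT 3, so the genotypes overlapped, while KO 2 and KO 3 were above all WT libraries. The log2 fold change was 0.33 (95% interval 0.03 to 0.62; edgeR adjusted p = 0.0767). It passed with DESeq2 (adjusted p = 0.0403) and without KO 1 (log2 fold change 0.43, adjusted p = 0.0166), and was at most 0.0791 with all libraries kept and at most 0.370 over all alternatives.

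**Figure D4:**
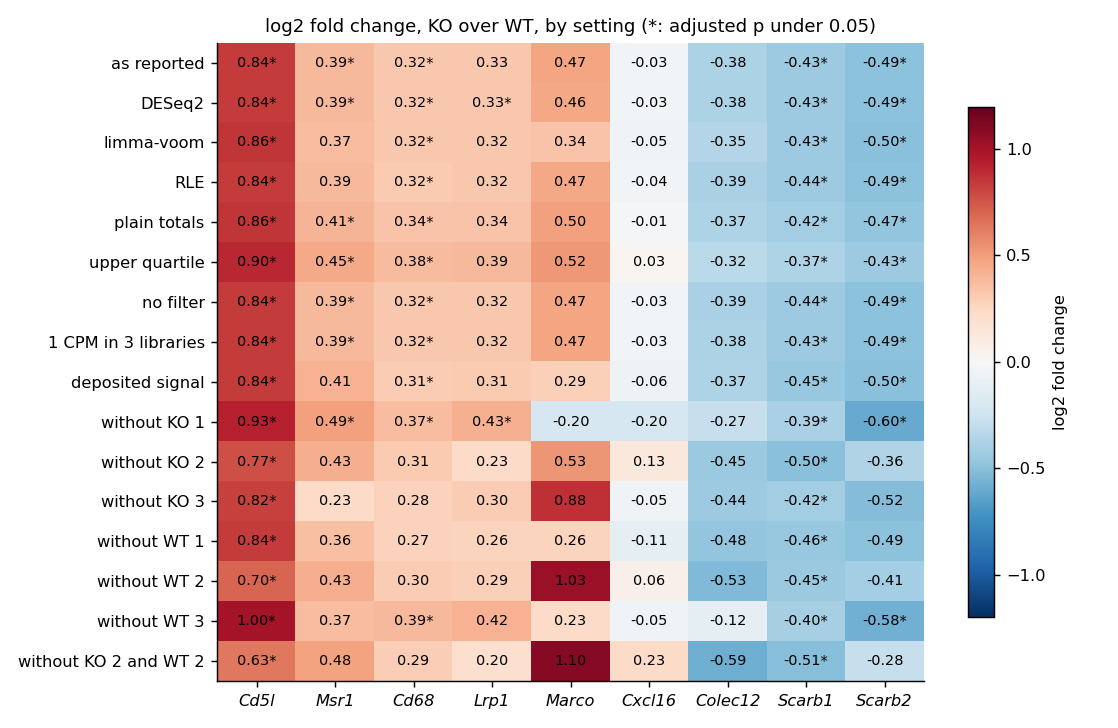
log2 fold change, KO over WT, of the 9 members that passed the filter (columns) as reported and under each alternative (rows), coloured from blue (lower in KO) to red (higher in KO), with a star where the adjusted p is under 0.05. Cd5l and Scarb1 carry a star in every row, and Marco and Cxcl16 change sign in some rows. Msr1, Cd68 and Scarb2 lose the star in several of the rows that leave out libraries. Msr1 also loses it with RLE, limma-voom and the deposited signal, where Cd68 and Scarb2 keep theirs.

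Shares called are of the genes tested in each setting, and the number tested differs. Of 12862 genes 35.2% were called with RLE, 35.2% with limma-voom, 29.0% with the deposited signal, 33.9% with plain totals and 35.4% with upper quartile scaling. The share was 33.4% of 13698 genes with DESeq2 and 38.4% of 11639 with a filter at 1 CPM. With no filter it was 18.6% of 21695 genes, where 4036 were called against 4532 as reported. The share was 41.7% without KO 1, 20.8% without KO 2, 18.2% without KO 3, 15.1% without WT 1, 19.0% without WT 2, 28.0% without WT 3 and 10.6% without KO 2 and WT 2. Fewer genes were called in all in each setting that left out a library other than KO 1.

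KO 1 was the KO library nearest to the WT mean for 4 of the 5 called members, the exception being Scarb1, where it was KO 2. Ratios of members inside a library do not depend on scaling. The ratio of Msr1 to Scarb1 per kilobase, chosen after their values were seen, was 5.10, 4.79 and 6.91 in KO 1 to KO 3, against 3.13, 3.39 and 2.94 in WT 1 to WT 3. That of Cd68 to Scarb2, chosen in the same way, was 26.5, 40.8 and 33.2 in KO and 17.3, 16.4 and 23.0 in WT. Each ratio sets a member that was higher in every KO library over one that was lower in every KO library, so the separation of the genotypes follows from that choice.

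The genes whose log2 CPM followed each called member most closely over the 6 libraries, among 8809 genes, were Tm9sf1, Spg7 and Entpd6 for Msr1 (Pearson's r of 0.994, 0.988 and 0.984), Mospd3, Wdr33 and Srebf2 for Scarb1 (0.996, 0.992 and 0.991), and Mgst1, Tmub2 and Pla2g15 for Scarb2 (0.998, 0.997 and 0.997). For Cd68 they were Myo10, Slc12a4 and Iqgap1 (0.994, 0.993 and 0.993), and for Cd5l Gnl3, Jup and Supt16 (0.997, 0.996 and 0.996). All points share the contrast of the genotypes and the library sizes, so these values are a description. Srebf2 encodes a sterol-sensing transcription factor, and fell to 137 ± 12.7 CPM in KO against 187 ± 14.7 CPM in WT (SD, n = 3 each; adjusted p = 0.0102).

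Receptors of other scavenger classes moved both ways. Of 11 measured genes among 15 listed, 2 rose and 4 fell, where 35.2% of all tested genes were called (18.5% higher and 16.8% lower). The median log2 fold change of the list was -0.19, where that of all tested genes was 0.00. With so few genes, the counts of this list and of those below are not read as results about a list. Cd36, also of class B and a major receptor for oxidised LDL, rose to 1909 ± 535 CPM in KO against 577 ± 149.8 CPM in WT (log2 fold change 1.73, adjusted p = 0.00717), opposite to Scarb1 and Scarb2. Stab1, a class H receptor, fell to 1922 ± 249 CPM in KO against 3946 ± 384 CPM in WT, Mrc1, the mannose receptor, to 902 ± 72.6 CPM in KO against 1947 ± 121 CPM in WT, and Cd163, the haemoglobin receptor, to 1.61 ± 0.372 CPM in KO against 3.58 ± 0.580 CPM in WT. Cd36, Stab1, Mrc1 and Cd163 kept their calls in all 15 alternatives. The difference between these genes and the 10 was not tested.

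In the lipoprotein receptor family of Lrp1 and its endocytic helpers, without Lrp1 itself, 2 of 16 measured genes rose and 5 fell. Of all tested genes 35.2% were called, and the median log2 fold change of this list was -0.02. Lrp6, a Wnt coreceptor, fell to 140.5 ± 32.7 CPM in KO against 250.4 ± 14.5 CPM in WT and Sorl1, a sorting receptor, to 56.2 ± 14.1 CPM in KO against 100.1 ± 15.8 CPM in WT, the call of Sorl1 being lost with no filter and without KO 3, WT 1 or WT 2. Lrp11 rose to 8.92 ± 0.709 CPM in KO against 4.67 ± 0.518 CPM in WT. Lrpap1, the chaperone of Lrp1 and its relatives, had a log2 fold change of 0.12 (adjusted p = 0.196).

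Ligands, adaptors and sheddases of the members also moved both ways. Of 17 measured genes among 22 listed, 5 rose and 3 fell, where 35.2% of all tested genes were called. The median log2 fold change of the list was -0.17. Lpl, the lipoprotein lipase that also bridges lipoproteins to Lrp1, rose to 5218 ± 1188 CPM in KO against 2552 ± 613 CPM in WT, a call lost with no filter, without WT 1 and without KO 2 and WT 2 together. Calr, calreticulin, which acts with Lrp1 in the uptake of apoptotic cells, rose to 1277 ± 144 CPM in KO against 855 ± 7.66 CPM in WT. Pltp, a phospholipid transfer protein, rose to 667 ± 118 CPM in KO against 451 ± 57.8 CPM in WT, a call lost without KO 2, KO 3, WT 1 or WT 2. The sheddases of Cxcl16 differed little: Adam10 fell to 187 ± 5.70 CPM in KO against 210.4 ± 5.06 CPM in WT (log2 fold change -0.17, adjusted p = 0.0429), a call lost with the deposited signal, no filter, plain totals and upper quartile scaling and without any 1 library other than KO 1, and Adam17 had a log2 fold change of -0.24 (adjusted p = 0.0774). Cxcr6 was at or under 5 counts in all libraries.

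Of the genes of the lysosomal membrane, the compartment of Scarb2 and Cd68, 2 rose and 4 fell among 13 measured of 15 listed. Of all tested genes 35.2% were called, and the median log2 fold change of this list was -0.03. Sidt2 fell to 126 ± 20.8 CPM in KO against 202 ± 10.8 CPM in WT, a call kept in all 15 alternatives, and Slc38a9, an amino acid sensor, fell to 26.6 ± 3.07 CPM in KO against 33.9 ± 0.512 CPM in WT. Cd63, a tetraspanin, rose to 1201 ± 100.1 CPM in KO against 984 ± 39.3 CPM in WT. The calls of Slc38a9 and Cd63 were lost without any 1 library other than KO 1. Lamp1, the most abundant relative of Cd68, fell to 1929.8 ± 108 CPM in KO against 2315 ± 60.6 CPM in WT (edgeR adjusted p = 0.0275), a call lost with upper quartile scaling and without any 1 library other than KO 1.

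**Figure D5:**
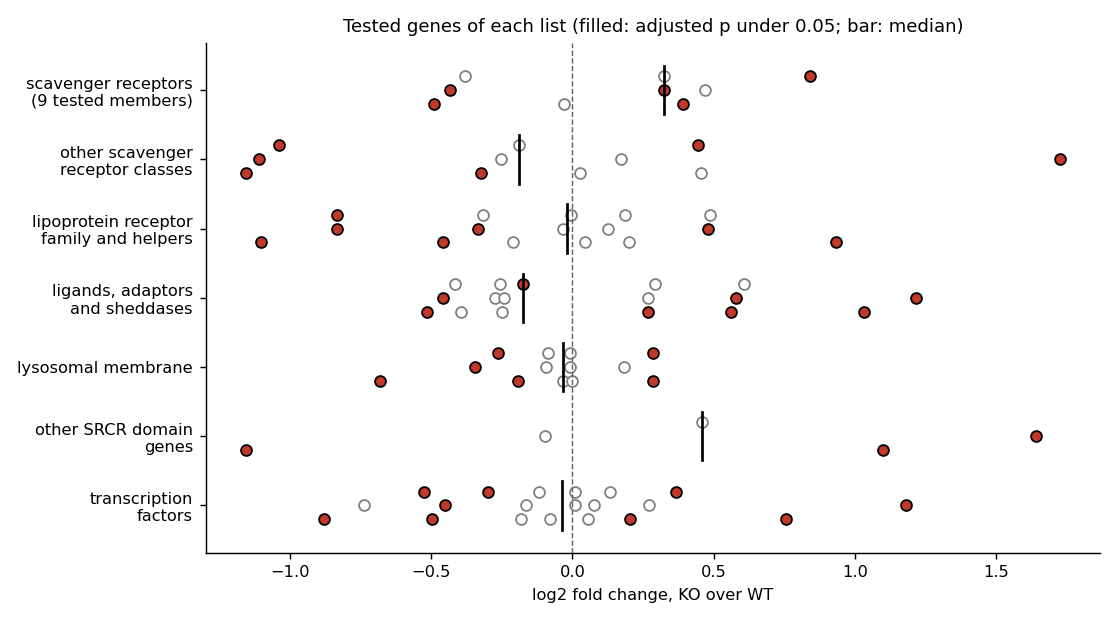
log2 fold change, KO over WT, of the tested genes of each list, with filled points for an adjusted p under 0.05 and a bar at the list's median. The 9 tested members lie between -0.49 and 0.84, and the other scavenger receptor classes reach from -1.16 (Cd163) to 1.73 (Cd36).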

How the data were processed

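Directional libraries of total RNA were sequenced, per the labels. The submitters' processing notes name DRAGEN, DESeq2 and mm10, with no versions or roles; how reads were assigned to genes, with which annotation and strand setting, is not given in the sources used here. In the deposited table each Ensembl gene has a whole-number count. The authors also deposited a normalized signal, used as an alternative only. Groups follow the genotype label, with 3 libraries each, numbered in the order of the samples. The design text mentions 4 KO animals; 3 KO libraries were analysed. Replicate pairs differed by more than sampling noise (chi-square per degree of freedom 12.6 to 52.6), and each library was counted as 1 sample. Technical variation can also give such an excess, so it does not show that the libraries came from different animals.

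All 42256 genes matched a symbol in GENCODE M21 (GRCm38, also called mm10), which gave coordinates and exon lengths; promoters come from RefSeq (GRCm38.p6). The test was that of edgeR 4.0.16 (R 4.3.3): filterByExpr (minimum count 10), TMM, robust quasi-likelihood F test without covariates, two-sided, Benjamini-Hochberg over 12862 genes. Cdh11 and Olr1 failed the filter and were each added for their own fit. The SE is the log2 fold change divided by the square root of F. The test was also run on simulated data, and its outcome is not given here, so no result in this report rests on it. Alternatives were DESeq2 1.42.0, limma-voom (limma 3.58.1), RLE, upper quartile and plain totals, no filter, 1 CPM in 3 libraries, limma on the deposited signal (log2, pseudocount 1), and leaving out libraries. The members, the lists and the rule for named genes (up to 4 called genes per list with the largest change whose mean log2 CPM is 0 or more, and the 3 genes most like each called member whose mean log2 CPM is 3 or more) were chosen with earlier results of these data known; Adam10, Adam17, Lamp1, Lrpap1, Spi1, Srebf2, Zmynd15 and Lgals3bp are also named, after their values were seen. Floors and intervals cover counting or library error only. Some genes counted in the lists are not reported here by name.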

Additional observations from a re-analysis of the deposited data

How the results depend on the processing

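No paired analysis was possible because the labels give no replicate numbers shared between the genotypes. Directions and calls of Cd5l and Scarb1 held under all 15 alternatives. Leaving out 1 library gave 1 to 4 members higher and 1 to 2 lower, 1037 to 2791 genes higher and 942 to 2665 lower; in the lists (higher, then lower) it gave 1 to 2 and 3 to 4 other scavenger receptors, 2 to 3 and 2 to 5 lipoprotein receptor family genes, 1 to 2 and 1 SRCR genes, 0 to 2 and 1 to 4 lysosomal genes, 1 to 6 and 1 to 4 ligands, adaptors and sheddases, and 3 to 4 and 3 to 6 transcription factors. With fewer libraries the test also has less power. Without KO 2 and WT 2 together, chosen after seeing the data, 1 member was higher and 1 lower, 710 genes were higher and 668 lower, 1 other scavenger receptor, 1 lipoprotein receptor family gene, 1 SRCR gene and 1 ligand, adaptor or sheddase were higher, 2 transcription factors and 1 lysosomal gene were lower, and 0 lysosomal genes were higher. Where edgeR called 0 lysosomal rises, 1 to 3 had an unadjusted p under 0.05, and no other tool was run on those libraries. With the deposited signal 4 lipoprotein receptor family genes and 1 lysosomal gene were higher; with 1 CPM in 3 libraries 1 SRCR gene was higher; with upper quartile scaling 2 lysosomal genes were lower. Of the other genes named with their values, Lpl, Pltp, Adam10, Slc38a9, Cd63, Lamp1, Rxra, Maf, Lyz2, Egfl7 and Ssc5d also lost their calls without KO 2 and WT 2. Signs turned for Cxcl16 with upper quartile scaling (0.026), without KO 2 (0.13), without WT 2 (0.06) and without both (0.23), and for Marco without KO 1 (-0.20); Marco was at 1.10 without KO 2 and WT 2. Levels per length used all exons; with the longest transcript they were 98.3 CPM per kb in KO and 75.0 in WT for Msr1, 27.8 and 37.5 for Scarb1, 45.9 and 64.5 for Scarb2, 129 and 103 for Lrp1 and, in WT, 80.3 for Cxcl16. The causes were not tested. At this depth Olr1 could not be compared.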

Other observations

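Other genes with SRCR domains, the fold shared by Msr1, Marco and Cd5l, were mostly low: 5 of 14 passed the filter. Of these 2 rose and 1 fell, where 35.2% of all tested genes were called. Loxl3, a lysyl oxidase relative, rose to 60.0 ± 14.9 CPM in KO against 28.0 ± 3.92 CPM in WT (SD, n = 3 each; edgeR adjusted p = 0.00951), and Ssc5d, named after its values were seen, had 0.852 CPM in KO and 0.273 CPM in WT on average. Lgals3bp, the most abundant of them, had a log2 fold change of -0.10 (adjusted p = 0.702).

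Of 20 transcription factors known to act on scavenger receptor genes, 4 rose and 5 fell in KO, where 35.2% of all tested genes were called. The median log2 fold change of the list was -0.04. Pparg, which drives Cd36, rose to 71.5 ± 4.74 CPM in KO against 42.3 ± 5.66 CPM in WT (adjusted p = 0.00556), and Rxra, its partner and that of LXR, fell to 139 ± 20.1 CPM in KO against 199 ± 32.6 CPM in WT, a call lost with no filter and without KO 2, KO 3, WT 1 or WT 2. Spi1, which encodes PU.1, had a log2 fold change of 0.01 (adjusted p = 0.929).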
